A study of Mus musculus with 13 samples.

Results

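The Hox genes were taken as every row of the fat and tumour tables whose symbol is Hoxa, Hoxb, Hoxc or Hoxd followed by a number alone, which gave 39 of 22609 genes in each table. They comprise 11 Hoxa, 10 Hoxb, 9 Hoxc and 9 Hoxd genes. The tissues came from C57BL/6 mice, either wild-type (WT) or labelled as a fat-specific knockout of PD-L1 (KO), the surface ligand encoded by Cd274 that restrains T cells. Visceral fat came from mice fed a high-fat diet (HFD), and 3 WT and 4 KO libraries were made from it. E0771 tumours, grown from a transplanted mouse mammary cancer line, were collected from hosts of both genotypes, with 3 libraries each. The labels name no Cre driver, allele, age or sex, and do not say that each library came from its own animal, so p-values reflect only how far these libraries vary, which may be technical.

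Hox genes encode homeodomain transcription factors that mark position along the head-to-tail axis of the embryo. They lie in clusters, and their order along the chromosome follows their order of expression along the body axis, with low numbers anterior and high numbers posterior. Adult cells of mesenchymal origin, fat precursors and fibroblasts included, keep much of this code, so fat depots from different places carry different sets of Hox transcripts.

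On GRCm38 the Hoxa cluster lies on the minus strand of chromosome 6. The others lie on plus strands, Hoxb on chromosome 11 from 96194316 to 96368256, Hoxc on chromosome 15 from 102921103 to 103036852 and Hoxd on chromosome 2 from 74668310 to 74765142. Each gene carries a homeobox of 180 bases, which encodes the DNA-binding homeodomain. The homeoboxes of 4 genes on which the results turn are shown, because reads from paralogues this similar could be placed on the wrong gene. In each, the box lies in exon 2 of 2, on the plus strand. Hoxc8 (chr15:102992571-102992750) was the leading Hox transcript of fat. Hoxb8 (chr11:96284174-96284353) and Hoxd8 (chr2:74706525-74706704) are its paralogues of the same number. Hoxb13 (chr11:96196020-96196199) was read in the tumours and at 0 in every fat library, a count that allows up to 3 reads in each. Capitals mark bases that differ from Hoxc8 at the same place.
Hoxc8: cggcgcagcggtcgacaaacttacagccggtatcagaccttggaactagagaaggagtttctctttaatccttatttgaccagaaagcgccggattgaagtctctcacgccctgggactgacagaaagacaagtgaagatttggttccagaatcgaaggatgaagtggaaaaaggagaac
Hoxb8: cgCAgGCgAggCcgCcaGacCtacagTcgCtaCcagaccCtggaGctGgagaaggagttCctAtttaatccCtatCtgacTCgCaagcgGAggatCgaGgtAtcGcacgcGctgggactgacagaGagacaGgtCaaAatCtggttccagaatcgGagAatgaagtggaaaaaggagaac
Hoxd8: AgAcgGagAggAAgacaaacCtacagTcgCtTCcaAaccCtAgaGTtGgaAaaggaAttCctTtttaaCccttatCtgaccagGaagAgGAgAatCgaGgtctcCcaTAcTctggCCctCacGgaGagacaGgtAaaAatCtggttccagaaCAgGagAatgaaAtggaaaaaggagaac
Hoxb13: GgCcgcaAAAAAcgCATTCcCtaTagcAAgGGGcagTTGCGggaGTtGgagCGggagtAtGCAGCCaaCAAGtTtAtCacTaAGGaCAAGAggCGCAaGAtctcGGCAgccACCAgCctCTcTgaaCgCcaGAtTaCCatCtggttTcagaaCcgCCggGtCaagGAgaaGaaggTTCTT
The Hoxb8 box differed from that of Hoxc8 at 36 bases, the Hoxd8 box at 48 and the Hoxb13 box at 92. The longest identical run within the box was 21 bases for Hoxb8 and 15 for Hoxd8. Over whole transcripts, the longest stretch that Hoxc8 shared with any other Hox gene was 26 bases, with Hoxb8. Other genes shared more: between clusters, the longest stretches were 52 bases for Hoxa6 and Hoxb4 and 50 for Hoxb9 and Hoxc9. Whether reads were placed on the wrong gene was not tested.

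The fat libraries held 29362788 to 41534662 reads in genes and the tumour libraries 22834259 to 34706555. In fat, Cd274 itself did not separate the labels: KO libraries held 521.1 to 563.8 normalised reads and WT libraries 504.1 to 738.6 (log2 fold change -0.10, SE 0.15, limma adjusted p = 0.660), so each direction below rests on the labels. Tumours held Cd274 at 1391 to 1688 with WT hosts and 1568 to 2414 with KO hosts (edgeR adjusted p = 0.717). All fat libraries held the Y-linked transcript Ddx3y at 3612 or more, while 4 of 5 sex-linked genes were under 10 reads in all tumours and Xist was above that, so the fat showed male and the tumours female sex-linked transcripts. The defining adipocyte markers were abundant in fat, where the 10 fixed markers summed to 131487 or more in every library, and 7 of 10 were under 10 reads in all tumours. The WT fat columns are numbered 1, 3 and 4 in the table and are named by those numbers. WT column 4 also held the epididymal gene Adam7 at 1918 normalised reads against 0 to 2.02 in the other fat libraries. For this reason fat results are also given without each library where a call depends on it. The sperm gene Prm2 was 25.8 to 282.2 in WT fat and 0 to 1.08 in KO fat. Leaving out 1 library does not remove this difference between the labels, and its part in the fat results was not tested.

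Visceral fat carried a Hox profile led by the Hoxc cluster and by genes numbered 5 to 8. Levels of different genes were compared as normalised reads per kilobase of annotated exon. In WT fat Hoxc8, a thoracic-level gene that has been studied in white fat precursors, stood at 1325 ± 75.8 reads per kb (SD, n = 3), a level above that of 95.2% of the 20246 genes ranked. Hoxc6 followed at 411.4 ± 74.8 and Hoxc5 at 218.6 ± 22.3. Hoxc8 ranked first and Hoxc6 second among the Hox genes in every fat library, WT or KO. Hoxd8 held rank 4 at 168.0 ± 27.8 reads per kb and Hoxd4 rank 5 at 137.0 ± 66.4. From Hoxc5 down to Hoxa5, neighbours in this order did not differ beyond their spread. The WT ranges of Hoxc5 (193.5 to 236.3) and Hoxd8 (139.5 to 195.0) met. Hoxc4 at 130.8 ± 27.5 and Hoxa5 at 117.4 ± 50.2 lay within the range of Hoxd4. With exon lengths from RefSeq-linked transcripts alone, a choice made after the data were seen, Hoxc4 took the place of Hoxd4 among the first 5.

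**Figure D1:**
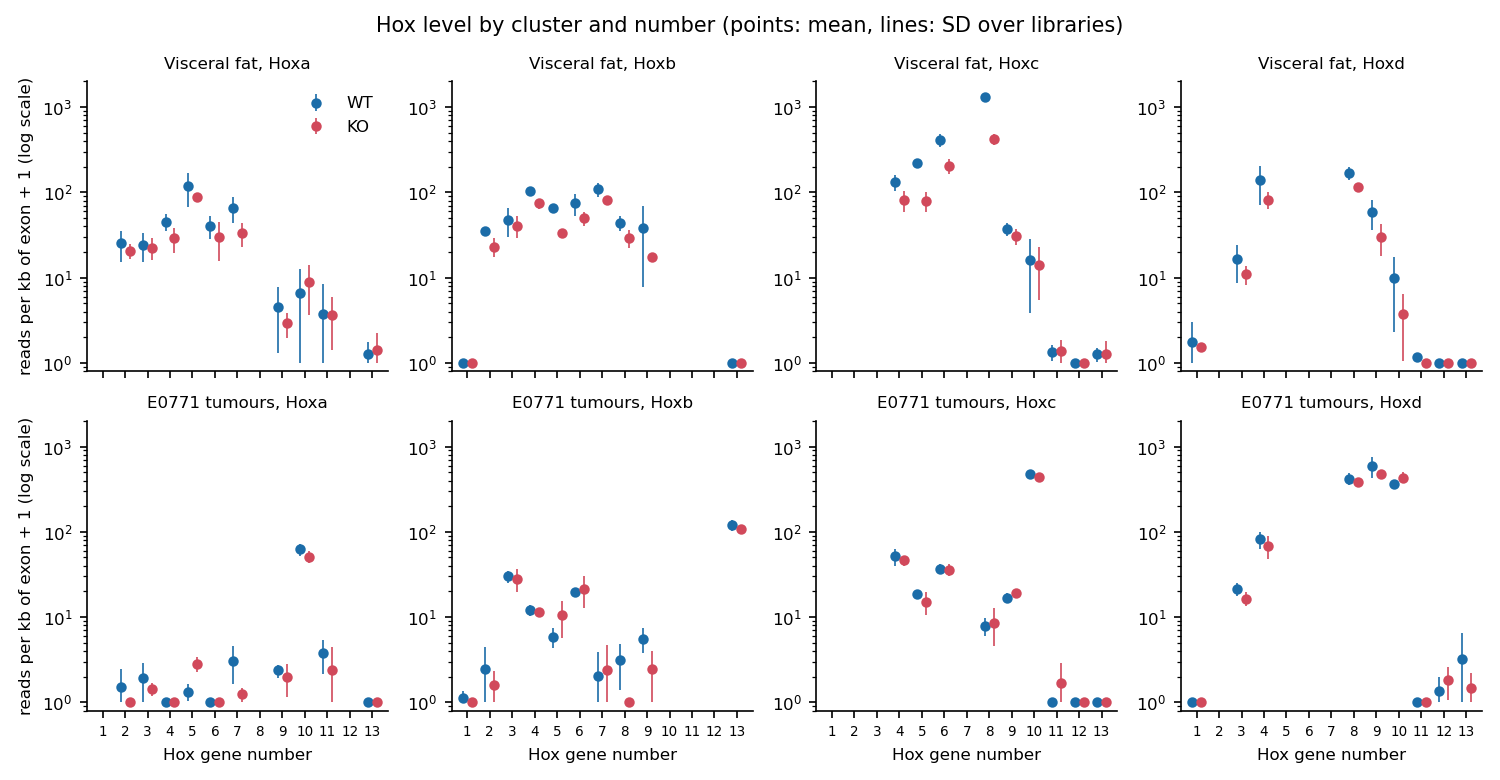
Mean level of each Hox gene drawn, in normalised reads per kilobase of exon plus 1 (log scale) against its number, by cluster, in visceral fat (top) and E0771 tumours (bottom), with WT in blue and KO in red; lines are SDs over 3 or 4 libraries. Fat peaks at Hoxc8 at 1325 in WT, while the tumours are led by Hoxd9 at 589.6 and Hoxc10 at 471.5, and the scales of the tissues were set separately.

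In WT fat the Hoxc cluster supplied 63.3% ± 6.95 (SD, n = 3) of the summed Hox level per kb, and Hoxc8 alone 39.3% ± 5.01. The Hoxb cluster supplied 14.9%, Hoxd 11.4% and Hoxa 10.4%. By position, genes numbered 5 to 8 made up 77.8% ± 4.85 of the sum, those numbered 1 to 4 17.3% and those numbered 9 to 13 4.89%. At the posterior end, Hoxb13, Hoxc12, Hoxd12 and Hoxd13 were at 0 reads in every fat library, as was the anterior Hoxb1. Of the 39 genes 10 stayed under 10 reads in all fat libraries, a group that includes these 5.

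In KO fat 7 Hox genes were lower, those of smallest p being Hoxc8, Hoxc5, Hoxb5 and Hoxc6. Of the 39 Hox genes 28 passed the filter on low values, and of these 7 fell, 0 rose and 21 were not called (limma on log2(value + 1), Benjamini-Hochberg adjusted p under 0.05). Over all 14455 genes tested, 17.4% fell and 16.8% rose, so the 7 falls of 28 lie near the background share. Taken as KO minus WT, the log2 fold change was below 0 for 27 of the 28, against 50% of all genes tested. Without WT column 4, the library with epididymal transcripts, it was below 0 for 20 of 27, and Hoxa2, Hoxa3, Hoxa9, Hoxb3 and Hoxc10 were among those that turned above 0. Its median was -0.56 over these Hox genes and -0.00 over all genes. KO lay below WT without overlap for 11 of the 28 (22.1% of all genes) and above it for 0 (21.6% of all genes). These are fold changes of log2(value + 1), a scale that understates the change of low genes, and in bulk tissue fewer cells of a type and less RNA per cell cannot be told apart.

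**Figure D2:**
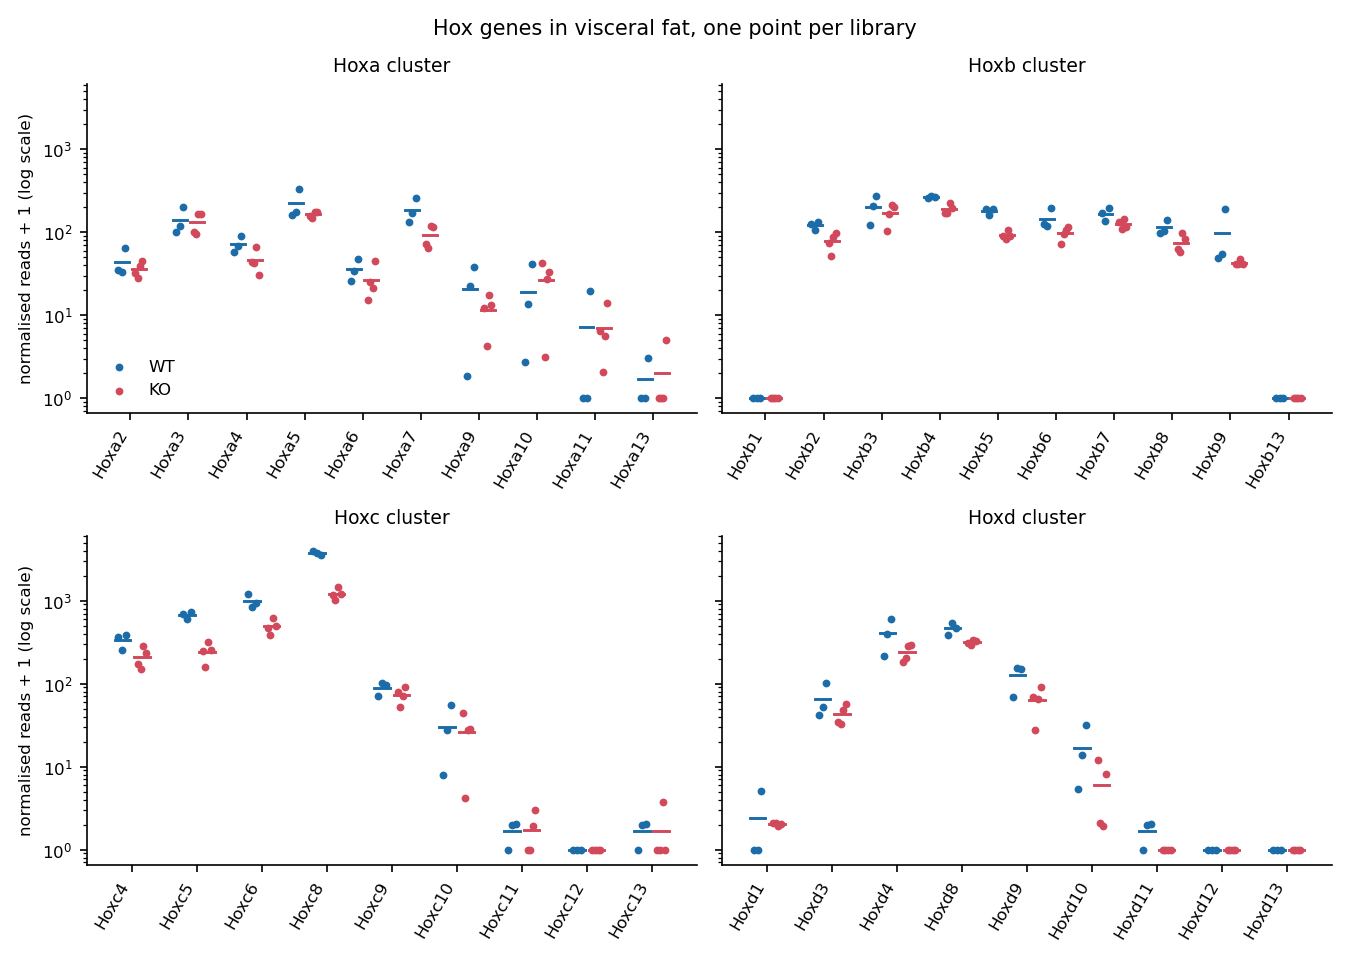
Normalised reads plus 1 (log scale) of each Hox gene drawn, in the 7 visceral fat libraries, by cluster, with WT points in blue and KO points in red and bars at the group means. For Hoxc8 the 4 KO libraries lie between 1010 and 1440 and the 3 WT libraries between 3543 and 3972, while no gene numbered 12 or 13 exceeds 4.03.

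The Hoxc cluster held 3 of the 7 falls. Hoxc8 read 3972, 3742 and 3543 normalised reads in WT columns 1, 3 and 4, and 1171, 1010, 1440 and 1202 in KO libraries 1 to 4. Every KO library was thus well below every WT library, and the spread within each group was small. Its log2 fold change was -1.65 (SE 0.13, limma adjusted p = 0.000678), the 17th smallest p of the 14455 genes tested. Hoxc5, further towards the anterior end of the code, read 697.7, 597.7 and 730.0 in WT and 245.1, 156.4, 313.2 and 249.9 in KO. The groups did not overlap, and the log2 fold change was -1.52 (SE 0.23, limma adjusted p = 0.00230). Hoxc6, which lies between them, read 1189, 837.4 and 945.5 in WT and 473.6, 385.1, 617.4 and 497.8 in KO, again without overlap. Its log2 fold change was -1.01 (SE 0.19, limma adjusted p = 0.00494).

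The other 3 tested Hoxc genes were not called. Hoxc4, the most anterior gene of the cluster, read 364.8, 255.3 and 387.7 in WT and 173.3, 149.95, 279.6 and 229.8 in KO. One KO library, KO 3, exceeded the lowest WT library, and the log2 fold change was -0.71 (SE 0.25, limma adjusted p = 0.0607). Without KO 3, Hoxc4 was called. On the posterior side, Hoxc9 had a log2 fold change of -0.30 (SE 0.26, limma adjusted p = 0.393) and Hoxc10 of -0.23 (SE 0.90, limma adjusted p = 0.870). The exons of Hoxc6 and Hoxc8 overlap no other annotated gene, and those of Hoxc5 overlap another gene's over 5.37% of their length.

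In the Hoxb cluster 2 of 8 tested genes fell. Hoxb5 read 186.7, 161.4 and 189.7 normalised reads in WT and 88.3, 82.0, 104.4 and 88.7 in KO. The groups were far apart, with a log2 fold change of -0.97 (SE 0.18, limma adjusted p = 0.00449). Hoxb4, known for its use in expanding blood stem cells, read 256.4, 268.0 and 264.0 in WT and 171.1, 167.2, 220.6 and 192.5 in KO. The fall was smaller, with a log2 fold change of -0.49 (SE 0.16, limma adjusted p = 0.0417), and the groups did not overlap. The other 6 had log2 fold changes from -0.89 for Hoxb9 to -0.21 for Hoxb3, and among them Hoxb2, Hoxb6, Hoxb8 and Hoxb9 had groups that did not overlap.

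The Hoxa and Hoxd clusters held 1 fall each. Hoxa7 read 132.5, 171.2 and 254.7 in WT and 70.6, 63.6, 118.9 and 115.9 in KO. WT column 4 was the highest, the groups did not overlap, and the log2 fold change was -1.01 (SE 0.32, limma adjusted p = 0.0387). Of the Hoxa7 exons 20.4% overlap an antisense gene, and the strand setting of the counting is not given in the sources used here. Hoxd8, the paralogue of Hoxc8 in the Hoxd cluster, read 382.8, 535.1 and 465.0 in WT and 308.0, 289.1, 332.3 and 321.5 in KO. Here too every KO library was below every WT library, with a log2 fold change of -0.55 (SE 0.15, limma adjusted p = 0.0242). Hoxd4, at rank 5 by level, read 211.6, 397.2 and 603.2 in WT and 183.2, 203.9, 286.0 and 287.2 in KO. WT column 1 lay within the KO range and the log2 fold change of -0.65 (SE 0.34) was not called (limma adjusted p = 0.172). Over 52.3% of its length, the exons of Hoxd4 overlap exons of other genes on the same strand, Hoxd3 among them, so its reads and those of Hoxd3 cannot be told apart with certainty.

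The calls of Hoxc8, Hoxc5, Hoxc6 and Hoxb5 were kept under all 13 alternative settings, including the removal of each fat library. Those of Hoxa7, Hoxb4 and Hoxd8 were lost without WT column 3, without WT column 4 or without KO 2, each of which left 4 calls. Hoxa7 and Hoxb4 were also lost without KO 1, and Hoxb4 and Hoxd8 without KO 4. Without WT column 4 the median log2 fold change of the tested Hox genes was -0.30. Without WT column 1, Hoxd4 (log2 fold change -1.05, limma adjusted p = 0.0189) and Hoxd9 were called and Hoxb4 was not, while without WT column 4 Hoxd4 stood at -0.30 (limma adjusted p = 0.494). An exact permutation test over the 35 relabellings gave a two-sided p of 0.0286, the smallest that 3 against 4 libraries allow, for 6 of the 7 called genes, and 0.0571 for Hoxb4.

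**Figure D3:**
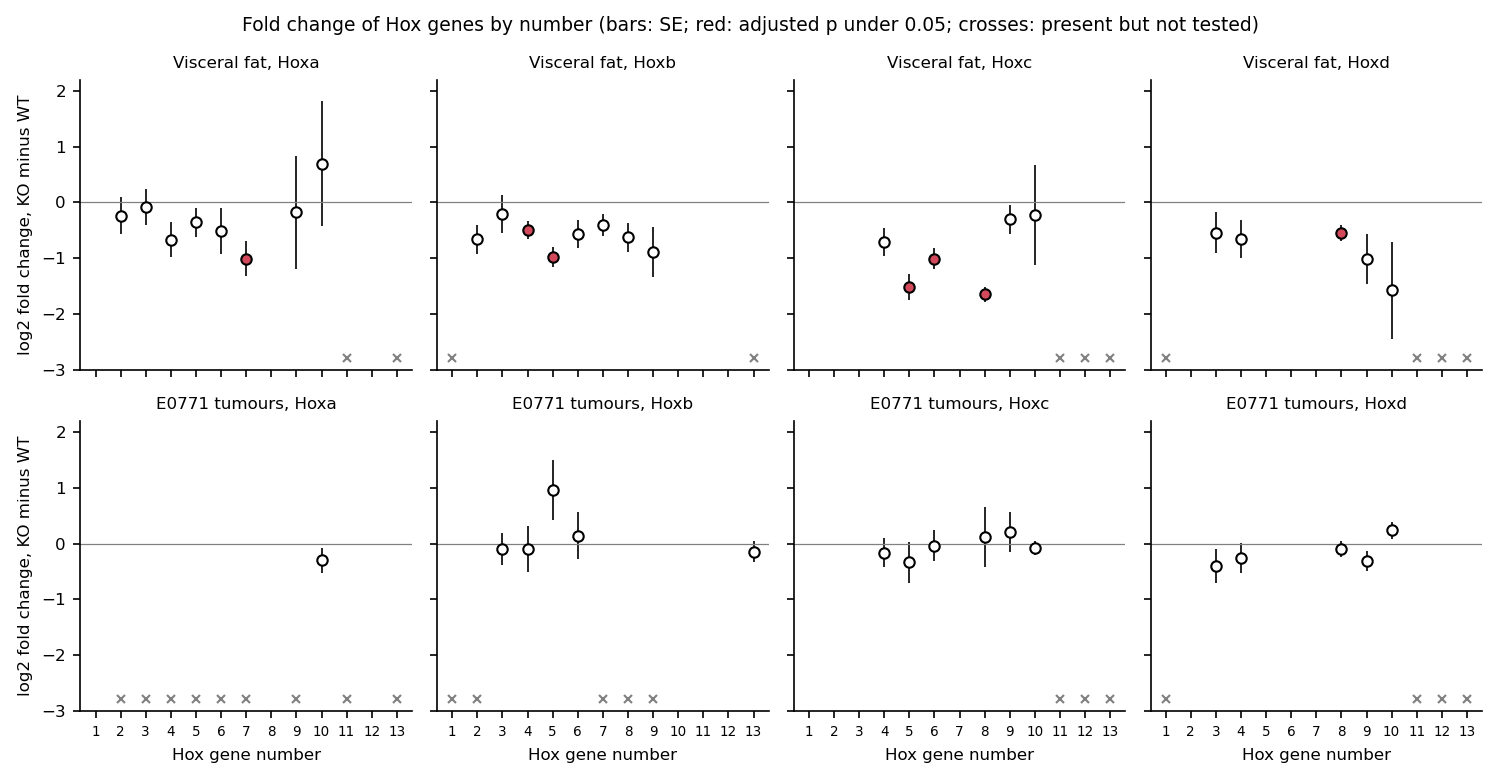
Log2 fold change, KO minus WT, of each tested Hox gene drawn, against its number, by cluster, in visceral fat (top) and E0771 tumours (bottom); bars are standard errors, red points have an adjusted p under 0.05, and crosses mark other genes of the cluster, which were not tested. In fat every point drawn other than Hoxa10 lies below 0 and the lowest called is Hoxc8 at -1.65, while in the tumours no point is called.

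By number, 6 of the 11 genes numbered 5 to 8 fell, beside 17.4% of all genes tested. Among tested genes numbered 1 to 4, 1 of 10 fell, and among those numbered 9 to 13, 0 of 7. The median log2 fold changes were -0.62, -0.52 and -0.30. Whether these groups of numbers differ was not tested. Genes numbered 5 to 8 were also the most abundant, and the part of abundance in these counts was not tested.

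The composition of the Hox transcripts differed as well. In KO fat Hoxc8 supplied 25.5% ± 1.25 (SD, n = 4) of the summed Hox level per kb, against 39.3% ± 5.01 in WT, and the ranges (23.7% to 26.4% and 33.6% to 42.9%) did not overlap. The share of the Hoxc cluster was 49.8% ± 2.42 in KO and 63.3% ± 6.95 in WT. Hoxb supplied 20.5% in KO and 14.9% in WT, and Hoxa 15.4% and 10.4%, while no gene of either cluster was called higher. The summed level of all Hox genes was 3188 to 3722 reads per kb in WT and 1361 to 1963 in KO. Without Hoxc8 it was still 1865 to 2471 in WT and 1004 to 1455 in KO, without overlap. These sums and shares were not tested. The order of the genes by level was nearly the same in both genotypes (Spearman's rho = 0.986 across the 39 genes, which share libraries and gene lengths and are not independent).

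Hoxa9, Hoxa10 and Hoxc10 varied widely between fat libraries, with WT and KO values that overlapped. Hoxa10, a gene of the lumbar and reproductive-tract region, read 1.72, 12.7 and 40.2 normalised reads in WT columns 1, 3 and 4 and 41.9, 2.16, 26.3 and 32.2 in KO libraries 1 to 4. It was the only tested Hox gene with a fold change above 0, at 0.70 on the log2 scale (SE 1.12, limma adjusted p = 0.660). Hoxc10 read 6.88, 26.4 and 53.6 in WT and 43.1, 3.24, 26.3 and 27.2 in KO. Both genes were lowest in WT column 1 and KO 2, a library of each genotype. Hoxa9 was also lowest in these libraries, at 0.860 and 3.24 against 11.0 to 37.1 in the other 5. Hoxd9 read 68.0, 154.6 and 150.5 in WT and 68.4, 27.0, 63.6 and 90.7 in KO, and was lowest in KO 2.

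WT column 4 was the highest library for most tested Hox genes, of low as well as high number. Among them were Hoxa3 at 202.1, Hoxa5 at 328.9, Hoxb3 at 270.1 and Hoxd4 at 603.2, beside Hoxa9, Hoxc10 and Hoxd10. It was not the highest for Hoxc6, Hoxc8 or Hoxd8. WT column 4 stood apart for Hoxb9. Hoxb9 read 186.6 there, against 48.2 and 52.8 in WT columns 1 and 3 and 39.9 to 46.3 in KO. WT column 4 is the library in which the 10 epididymal marker genes summed to 2031 normalised reads, against 5.16 to 18.8 in the other fat libraries. Their part in its Hox values was not tested.

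**Figure D4:**
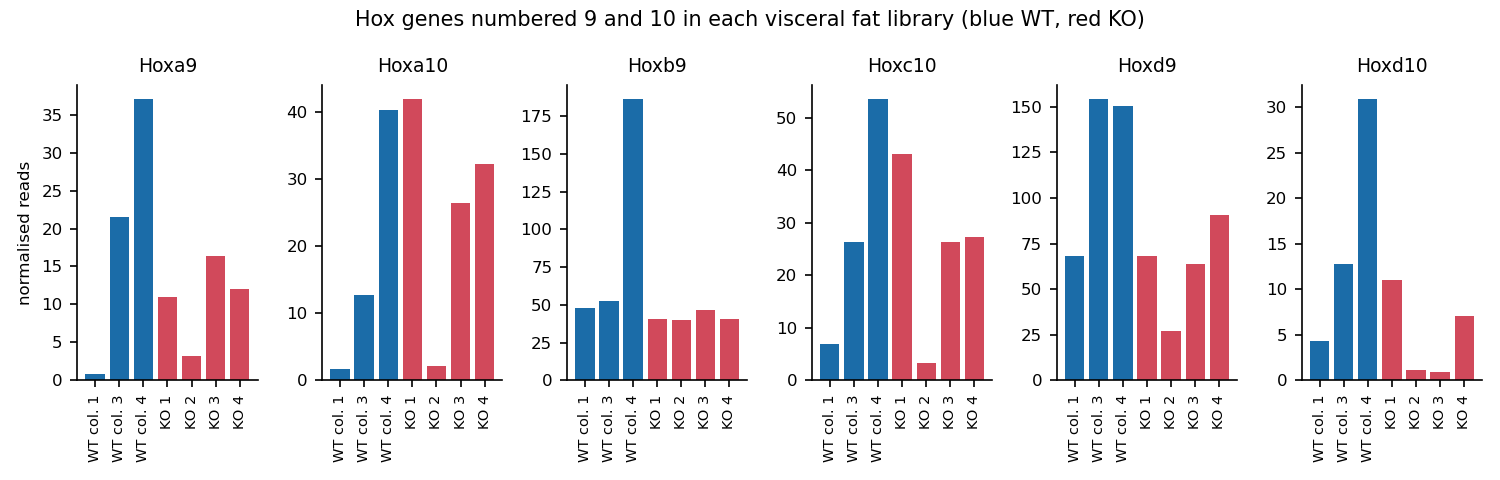
Normalised reads of 6 Hox genes numbered 9 or 10 in each of the 7 visceral fat libraries (WT blue, KO red), on an axis of its own for each gene. WT column 1 and KO 2 are the lowest bars for Hoxa9, Hoxa10 and Hoxc10, and WT column 4 stands at 186.6 for Hoxb9 against at most 52.8 elsewhere.

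Transcripts used as markers of cell types in fat differed with the genotype labels as well. All 10 adipocyte markers fell (median log2 fold change -2.19), and their sum was 556149 to 714698 in WT and 131487 to 214756 in KO. All 8 genes of the endothelial list fell (median -1.05; sums of 328088 to 380984 in WT and 142873 to 218952 in KO). This list includes Fabp4, which adipocytes also express, so its sums cannot be read as endothelium alone. Of 9 mesothelial markers 6 fell (median -0.89; sums of 5676 to 10812 in WT and 3184 to 5895 in KO). All 8 macrophage markers rose (median 2.26; sums of 41896 to 122473 in WT and 221418 to 327184 in KO). Of 10 stromal fibroblast markers 3 rose, the precursor receptor Pdgfra among them (log2 fold change 0.81, limma adjusted p = 0.00294), and 1 fell, Dpp4 (-0.83, limma adjusted p = 0.00894), with sums of 224430 to 419289 in WT and 446659 to 647136 in KO. Beside these counts, 17.4% of all genes tested fell and 16.8% rose. The calls among stromal fibroblast markers lie near the 34.2% called in either direction over all genes. The part of these cell types in the Hox results was not tested.

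Hox proteins bind DNA together with homeodomain partners of the TALE class, the Pbx, Meis and Pknox families. Of the 9 partner genes, all tested, 3 rose and 1 fell in KO fat, and the median log2 fold change was 0.36. These calls stand beside 34.2% of all genes tested, called in either direction. Meis3 rose from 357.7 ± 42.6 (SD, n = 3) in WT to 768.3 ± 105 (SD, n = 4) in KO (log2 fold change 1.10, limma adjusted p = 0.00169). Pbx2 rose by 0.61 on the log2 scale (limma adjusted p = 0.00319) and Pknox2 by 0.92 (limma adjusted p = 0.00501).

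Trithorax complexes keep Hox genes active and polycomb complexes keep them silent. Of 22 genes of these complexes, 3 rose and 1 fell in KO fat, and the median log2 fold change was 0.02. Wdr5 and Rbbp5, core subunits of the trithorax-type methyltransferases, rose by 0.36 and 0.53 on the log2 scale (limma adjusted p = 0.0313 and 0.0165). Among the polycomb methyltransferases, Ezh2 rose by 0.63 (limma adjusted p = 0.0318) and Ezh1 had a log2 fold change of -0.37 (limma adjusted p = 0.0448). The 4 called of these 22 stand beside 34.2% of all genes tested.

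Retinoic acid and the Cdx factors act upstream of the clusters in the embryo. Of 12 such genes 8 were tested in fat and 1 was called, Aldh1a1, a retinaldehyde dehydrogenase, which fell from 8402 ± 2242 to 3114 ± 344 (log2 fold change -1.40, limma adjusted p = 0.00162). The 1 called of 8 stands beside 34.2% of all genes tested, called in either direction. The median log2 fold change of the 8 was -0.05. Cdx2 and Cdx4 were at 0 in every fat library. Of 15 tested genes that flank the clusters, 2 rose and 4 fell, near the 34.2% called over all genes. Skap2, beside the Hoxa cluster, had a log2 fold change of 1.17 (limma adjusted p = 0.00518) and Hibadh, beyond the other end of that cluster, of -1.10 (limma adjusted p = 0.00175). Of 10 tested genes that distinguish fat depots, 2 fell, near the 17.4% over all genes. Gpc4, a glypican whose level differs between depots, read 2611 ± 95.9 in WT and 867.7 ± 184 in KO (log2 fold change -1.61, limma adjusted p = 0.000982). Sfrp2, a secreted Wnt modulator, had a log2 fold change of -0.56 (limma adjusted p = 0.0316).

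The E0771 tumours carried a Hox profile led by the Hoxd cluster and by posterior genes. Hoxd9 stood at 589.6 ± 163 normalised reads per kb in WT hosts (SD, n = 3), Hoxc10 at 471.5 ± 9.80, Hoxd8 at 415.7 ± 66.9 and Hoxd10 at 365.9 ± 37.2. Neighbours among these 4 did not differ beyond their spread, and their places changed between libraries. Hoxb13, the most posterior gene of its cluster and a marker of prostate and hindgut identity, held rank 5 in every tumour library at 118.6 ± 18.3, well below the 4 genes above it. When only exons that overlap no other gene were counted as length, Hoxd4 took its place. The Hoxd cluster supplied 62.7% ± 3.99 of the summed Hox level in WT hosts, and Hoxd8, Hoxd9 and Hoxd10 together 58.3% ± 4.14. The Hoxc cluster supplied 25.8%, Hoxb 8.23% and Hoxa 3.25%. Genes numbered 9 to 13 made up 69.8% ± 0.956 of the sum.

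No Hox gene was called different between tumours of WT and KO hosts. Of the 39 genes 18 passed the filter on low counts, 0 were called by edgeR or by DESeq2, and 0 had an unadjusted p under 0.05. Over all 13109 genes tested 0% were called by edgeR, with 905 at an unadjusted p under 0.05. The log2 fold change was below 0 for 12 of the 18, against 49.1% of all genes, with a median of -0.09 over the Hox genes and 0.00 over all genes. None of the 18 had groups that did not overlap, against 4.93% of all genes with KO lower and 5.68% with KO higher. With 3 libraries against 3 the exact permutation p cannot go below 0.1.

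Hoxd9 read 1615, 1242 and 920.3 normalised reads in WT hosts 1 to 3 and 973.0, 1038 and 1018 in KO hosts 1 to 3. WT 3 lay below all KO tumours and the other WT tumours above them, and the log2 fold change was -0.32 (SE 0.18, edgeR adjusted p = 0.791). Hoxc10 read 883.6, 920.4 and 896.2 in WT and 856.6, 798.9 and 890.2 in KO, with KO 3 inside the WT range (log2 fold change -0.08, SE 0.13, edgeR adjusted p = 0.918). Hoxd8 read 1274, 1217 and 931.5 in WT and 999.96, 1075 and 1117 in KO, so that the KO tumours lay within the WT range (log2 fold change -0.10, SE 0.15, edgeR adjusted p = 0.916).

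Hoxd10 read 728.9, 670.2 and 594.0 in WT and 661.9, 891.9 and 800.4 in KO, with KO 1 inside the WT range (log2 fold change 0.24, SE 0.16, edgeR adjusted p = 0.804). Hoxb13 read 296.5, 271.1 and 217.5 in WT and 231.9, 230.6 and 247.0 in KO, all KO tumours within the WT range (log2 fold change -0.15, SE 0.19, edgeR adjusted p = 0.902). Hoxa10, with the second smallest p among the genes below 0, read 180.3, 240.6 and 182.2 in WT and 145.9, 149.1 and 194.2 in KO (log2 fold change -0.30, SE 0.22, edgeR adjusted p = 0.823), with KO 3 inside the WT range. Hoxb5, which had the smallest p of all tested Hox genes, read 11.8, 10.5 and 18.6 in WT and 39.6, 12.7 and 26.9 in KO. These are few reads, KO 2 lay inside the WT range, and the log2 fold change of 0.97 (SE 0.54) was not called (edgeR adjusted p = 0.778).

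Hoxc8, which led in fat, read 25.6, 17.2 and 15.8 in WT and 10.1, 33.1 and 21.3 in KO tumours, 0.292% of the summed Hox level in WT. Hoxc5 and Hoxc6, which fell in KO fat, had log2 fold changes of -0.33 (SE 0.37, edgeR adjusted p = 0.886) and -0.04 (SE 0.28, edgeR adjusted p = 0.987) in the tumours. The difference between the tissues in the effect of the KO label was not tested. Among the 21 genes not tested, 7 were at 0 in every tumour and 13 were under 10 reads in all. At these low counts, the groups of Hoxa7, Hoxb8 and Hoxb9 did not overlap with KO lower, at most 16.7 normalised reads in any library, and those of Hoxa5 with KO higher, at most 4.22. With no filter on low counts these are 3 lower and 1 higher of 32 Hox genes. KO lay lower without overlap for 4.69% of all genes at that setting. No member of the partner, regulator, upstream, flanking or depot lists was called in the tumours.

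Across tissues only ranks within each table were compared. Hoxd8 and Hoxd4 ranked high in both, Hoxd8 at 4 in fat and 3 in the tumours and Hoxd4 at 5 and 6. Hoxc8 went from rank 1 in fat to rank 16 in the tumours, and Hoxa5 from 7 to 30. In the other direction, Hoxb13 went from the genes at 0 in fat to rank 5, Hoxc10 from 25 to 2, Hoxd10 from 26 to 4 and Hoxa10 from 27 to 7. Spearman's rho between the WT levels was 0.425 across all 39 genes and 0.136 across the 27 with reads in both tissues. The depot gene Tbx15, given here by level and not by rank, read 2056 to 2775 normalised reads in the tumours. In fat it read 0.860 to 7.73, on a scale that was set separately. The sex-linked transcripts, the tissue and the table differ together, so their parts in these ranks and levels cannot be told apart.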

How the data were processed

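RNA was extracted with Trizol and libraries were made with the TruSeq stranded mRNA kit, per the labels' protocols. The submitters' processing notes name CASAVA, TopHat, DESeq2 and mm10. The counting tool, annotation and strand setting are not given in the sources used here. For tumours the authors deposited read counts per gene, and 5 summary lines that name no gene, 66.7% to 72.2% of entries, were left out. For fat the authors deposited a normalised signal, which the values show to be counts divided by 1 size factor per library: 117220 of 117220 values above 0 were whole multiples of the step within 0.001 (100%).

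For tumour counts the quasi-likelihood test of edgeR 4.0.16 (R 4.3.3) was run after TMM and filterByExpr, and printed values are counts scaled to the TMM library size. For fat, limma 3.58.1 (trend) was run on log2(value + 1) over genes with 10 or more in at least 3 libraries. Tests were two-sided, adjusted over all tested genes (Benjamini-Hochberg, threshold 0.05), and both pipelines were tested on simulated data. DESeq2 1.42.0 was an alternative for tumours. Groups came from sample titles, and the WT fat columns, whose numbers differ from the labels, were assigned by group. Exon lengths, coordinates and homeoboxes came from GENCODE M21 on GRCm38, where all 39 genes matched by symbol.

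The Hox genes and other lists were chosen with earlier results of these data known. Values in every library are given for called Hox genes, the 5 of highest level per tissue and, where none was called, the 2 of smallest p in each direction. Hoxc4, Hoxa9, Hoxb9, Hoxd9, Hoxa10 and Hoxc10 in fat and Hoxc8 in the tumours were added after their values were seen. Of other lists, up to 4 members of smallest p are named. The results of 2 genes are neither reported nor drawn here, though counts and sums include them.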

Additional observations from a re-analysis of the deposited data

How the results depend on the processing

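The calls of Hox genes in fat numbered 7 under pseudocounts of 0.5 and 5, a filter on a mean of 20, rescaling by TMM and edgeR on the recovered reads (4898 genes called in all), and 5 with no filter, where Hoxa7 and Hoxb4 were lost. Leaving out 1 library at a time gave 4 to 8 Hox calls, with 4 without WT column 3, WT column 4 or KO 2, and 3065 to 5193 calls over all genes against 4947, the lowest without WT column 3. None of these fits called a Hox gene higher in KO. In the tumours every alternative called 0 Hox genes. Over all genes DESeq2 called 59, edgeR with no filter on low counts 22, and leaving out 1 tumour 0 to 21 (21 without WT 3 and 9 without KO 3), and the cause was not tested. With the replicate number as a block, 0 Hox genes and 0 genes in all were called. Tumours of the same number did not deviate together (r of -0.23, 0.01 and -0.22), so the numbers were not taken as pairs. No paired analysis was possible in fat because the WT columns carry numbers other than those of the labels. None of the 8 Hox genes followed in fat (the called 7 and Hoxd4) or the 7 in the tumours changed direction in any setting run. Of all tested Hox genes, 6 turned direction in fat without WT column 4, 3 without KO 2, 2 without KO 1 and 1 each without WT columns 1 and 3. In the tumours up to 4 turned when 1 library was left out, and 1 with the block, none of them called. Over all fat genes, rescaling by TMM gave 2514 higher and 2408 lower calls, against 2430 and 2517. Low counts kept 9 of the 16 Hox genes numbered 9 to 13 in fat and 21 Hox genes in the tumours from being tested. Differences in these genes were therefore not assessed. Some tested posterior genes of fat were also low, such as Hoxa10 with as few as 2 reads in a library.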
